A study of Mus musculus with 12 samples.

Results

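The genes described here encode enzymes that remove superoxide and peroxides, and were chosen by name: Sod1, Sod2, Cat, Gpx1, Gpx4, Prdx1, Prdx3, Prdx5, Prdx6 and Txnrd2. They are 10 of the 15113 genes in the count table, and all 10 were among the 12730 genes that were expressed highly enough to be tested. C2C12, a mouse myoblast line, was grown in medium with 10% FBS, switched to 2% horse serum to form myotubes, and exposed for 16 h to 20 μM BAM15 in DMSO or to vehicle. BAM15 is a small-molecule protonophore that lets protons back into the mitochondrial matrix without ATP synthesis. The comparison asks how the myotube transcriptome stood after prolonged uncoupling, from 6 libraries per condition. By their labels the 2 groups differ in BAM15 alone. Both come from the same immortalized line, and the labels do not say whether the libraries came from separate cultures, so p-values measure the spread between these libraries.

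Superoxide leaks from the respiratory chain and from several oxidases. Superoxide dismutases turn it into hydrogen peroxide, which is then reduced to water by catalase in peroxisomes, by glutathione peroxidases at the expense of glutathione, and by peroxiredoxins at the expense of thioredoxin, which thioredoxin reductases regenerate from NADPH. Each compartment has its own set. By their main site, Sod1, Gpx1, Prdx1 and Prdx6 were counted here as the 4 cytosolic enzymes and Sod2, Prdx3 and Txnrd2 as the 3 mitochondrial ones. Cat is peroxisomal, and the products of Gpx4 and Prdx5 go to several compartments.

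After BAM15, Prdx6 rose and Gpx1 and Prdx1 fell, and all 3 of these were counted as cytosolic enzymes. The standard errors of their log2 fold changes were 0.06, 0.04 and 0.05. Those of the mitochondrial Sod2, Prdx3 and Txnrd2 were larger, at 0.17, 0.30 and 0.10. That no mitochondrial enzyme was called therefore does not show that these enzymes were unchanged. Of the 10 genes, 1 was higher, against 22% of all tested genes, and 2 were lower, against 20.3% of all tested genes, at an adjusted p below 0.01 (quasi-likelihood test of edgeR, Benjamini-Hochberg adjusted over all tested genes). The same 3 genes were the ones whose groups did not overlap. In 1 gene every BAM15 library lay above every vehicle library, as in 17.1% of tested genes, and in 2 genes every BAM15 library lay below, as in 17%. No enzyme passed all 3 thresholds of the study's methods, which add a base mean above 50 and a change of more than 2-fold (7.28% of tested genes passed). In each of the 10 the 95% interval of the fold change lay inside 2-fold in either direction. The median log2 fold change was 0.05 over the 10 and 0.02 over all tested genes.

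The labels number the libraries 1 to 6 in each condition and give no meaning to the number. BAM15 libraries 4 to 6 stood apart from BAM15 libraries 1 to 3 across the transcriptome: 18.6% of tested genes were higher in 4 to 6 and 20.2% were lower at an adjusted p below 0.05. In the vehicle libraries the same contrast gave 0% of tested genes (0 genes by edgeR's quasi-likelihood test, with 696 at an unadjusted p below 0.05). The split into 1 to 3 and 4 to 6 was taken from earlier results of these data, in which the BAM15 libraries divided there. Shares and p-values that use the split therefore describe these libraries. The vehicle libraries were not split by their own values and are not a like comparison. Total counts were 13983725 to 18751780 in BAM15 and 15299135 to 18866728 in vehicle libraries. The 10 most abundant genes took 10.9 to 15.4% of counts in BAM15 and 11.0 to 14.0% in vehicle libraries. All 8 myotube markers were detected in every library, with 2 higher, 2 lower and 4 not called, and a summed level of 17247 to 22856 CPM in BAM15 and 17587 to 19453 CPM in vehicle. Of the 4 markers of undifferentiated or dividing myoblasts, Pax7, Ccnb1 and Mki67 fell and Myf5 rose, and their sum was 41.8 to 80.6 CPM in BAM15 and 79.3 to 96.9 CPM in vehicle. Of the 4 immune markers 2 were listed, with a sum of 4.88 to 8.22 CPM in BAM15 and 1.28 to 2.40 CPM in vehicle, and Cd68 (a lysosomal membrane protein) rose from 0.809 to 3.80 CPM. Of 4 adipocyte and 4 endothelial markers 1 each was listed, at most 0.321 CPM in any library. The part of these shifts in the results below was not tested, and in such bulk samples fewer cells of a kind cannot be told apart from less RNA per cell.

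Levels are given as TMM-scaled CPM, a gene's share of its library's counts on 1 common scale. The libraries hold about 1 read per transcript, taken near the poly(A) tail, so that a gene's CPM does not scale with transcript length and levels of different genes can be set side by side. In vehicle, the order of the mean levels was Prdx1 (592 CPM), Sod1 (570 CPM), Prdx6 (239 CPM), Gpx1 (213 CPM), Prdx5 (199 CPM), Sod2 (111 CPM), Cat (63.3 CPM), Prdx3 (35.3 CPM), Gpx4 (23.1 CPM) and Txnrd2 (10.6 CPM). Neighbors whose vehicle libraries overlapped were Prdx1 and Sod1, Prdx6 and Gpx1, Gpx1 and Prdx5, and Prdx3 and Gpx4. The first gene stood 55.7-fold above the last. In BAM15 libraries Prdx6 and Gpx1 no longer overlapped, nor did Gpx1 and Prdx5, of which Prdx5 was then the higher, while Sod2 came to overlap Cat, and Cat came to overlap Prdx3.

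**Figure D1:**
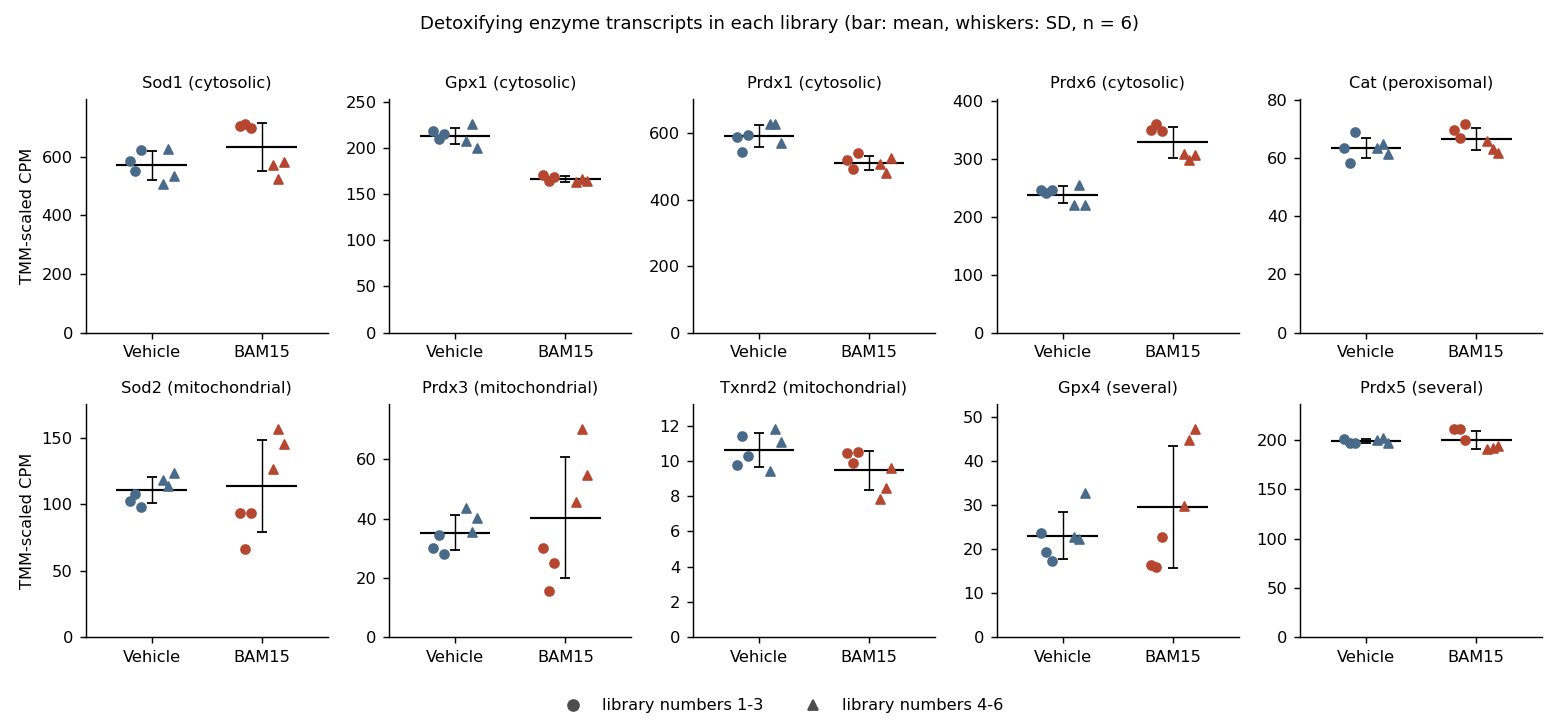
TMM-scaled CPM (vertical axis, from 0) of each of the 10 enzymes in the 6 vehicle and 6 BAM15 libraries, with circles for library numbers 1 to 3 and triangles for 4 to 6. Bars are means and whiskers SDs. Prdx6 is higher and Gpx1 and Prdx1 are lower in every BAM15 library, while the BAM15 libraries of the other enzymes except Gpx1 and Prdx1 divide by number, Sod2, Prdx3 and Gpx4 with 4 to 6 above and Sod1, Cat, Prdx5, Prdx6 and Txnrd2 with 4 to 6 below.

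Sod1 makes the copper-zinc superoxide dismutase of the cytosol. Its level was 523 CPM in the lowest, 639 CPM in the median and 711 CPM in the highest BAM15 library, and 506, 568 and 625 CPM in vehicle. Of the BAM15 libraries 3 lay above all vehicle libraries and 3 lay among them. BAM15 against vehicle gave a log2 fold change of 0.15 (SE 0.09), with an adjusted p of 0.166 by edgeR's quasi-likelihood test. The 3 high libraries were numbers 1 to 3, at 704 ± 7.33 CPM (SD, n = 3) against 586 ± 36.8 CPM in vehicle 1 to 3. Numbers 4 to 6 had 559 ± 31.6 CPM with BAM15 and 555 ± 62.0 CPM with vehicle. When the final 400 bases of the Sod1 transcript were cut into overlapping stretches of 50 bases, 18.2% of these also occurred in a pseudogene, Gm8566, which had 9 to 23 counts per library against 7905 to 12524 for Sod1.

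Sod2 makes the manganese superoxide dismutase of the mitochondrial matrix. The lowest, median and highest BAM15 libraries had 66.3, 110 and 157 CPM, and the vehicle libraries had 97.8, 111 and 123 CPM. BAM15 libraries lay on both sides of the vehicle range, with none inside it. On average the log2 fold change was 0.04 (SE 0.17, adjusted p of 0.871 by edgeR's quasi-likelihood test), and its 95% interval ran from -0.35 to 0.43. All 3 libraries below the vehicle range were numbers 1 to 3 (84.5 ± 15.8 CPM) and all 3 above it were numbers 4 to 6 (143 ± 15.5 CPM). In vehicle, numbers 4 to 6 (118 ± 4.81 CPM) also lay above numbers 1 to 3 (103 ± 5.06 CPM) without overlap, a ratio of 1.15 beside 1.69 in BAM15. Of the 50-base stretches at the Sod2 3′ end, 6.55% occur in other genes, 57 in number.

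Cat, the catalase of peroxisomes, had 61.5, 66.4 and 71.6 CPM in the lowest, median and highest BAM15 libraries. The vehicle libraries had 58.4, 63.4 and 68.9 CPM. These ranges overlapped almost throughout, and the log2 fold change was 0.07 (SE 0.06, adjusted p of 0.331 by edgeR's quasi-likelihood test), with a 95% interval from -0.06 to 0.19.

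Gpx1, the abundant glutathione peroxidase of the cytosol with a share in mitochondria, had the lowest p-value of the 10. Its BAM15 libraries had 163, 165 and 171 CPM (lowest, median and highest), and its vehicle libraries had 200, 212 and 226 CPM. All 6 BAM15 libraries lay below all 6 vehicle libraries. Its log2 fold change was -0.36 (SE 0.04), a decrease to 0.781 of the vehicle level, with an adjusted p of 7.71e-06 by edgeR's quasi-likelihood test. The change was -0.35 (SE 0.06) within numbers 1 to 3 and -0.36 (SE 0.06) within numbers 4 to 6. Gpx1 was also the steadiest of the 10 in BAM15, with a coefficient of variation of 1.85% that 99.9% of tested genes exceeded. None of its 50-base 3′ stretches occurs in another gene.

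Gpx1, Gpx4 and Txnrd2 are selenoproteins, whose catalytic selenocysteine is read from a UGA codon that ends translation in most other messages. Their codons are shown because the selenium genes are counted among the related lists. Each sequence below is a stretch of the GENCODE M21 transcript (GRCm38, plus strand), with the selenocysteine codon in capitals. The codon lies at chr9:108339451-108339453 in Gpx1, at chr10:80054737-80054739 in Gpx4 and at chr16:18477772-18477774 in Txnrd2.
Gpx1: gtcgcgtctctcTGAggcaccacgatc
Gpx4: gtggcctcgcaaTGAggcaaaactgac
Txnrd2: gtgactggttgcTGAggctaagtcacc
In all 3 the codon is followed by ggc, which codes for glycine. Of the 3 selenoprotein genes Gpx1 fell, and Gpx4 and Txnrd2 did not pass the test.

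Gpx4, the glutathione peroxidase that reduces lipid peroxides in membranes, is made as cytosolic, mitochondrial and nuclear forms from 1 gene, and the 3′ counts do not separate them. BAM15 libraries had 16.0, 26.2 and 47.4 CPM (lowest, median and highest), and vehicle libraries had 17.4, 22.6 and 32.8 CPM. The groups overlapped, and 2 BAM15 libraries lay above and 2 below all vehicle libraries. Over all libraries the log2 fold change was 0.35 (SE 0.28, adjusted p of 0.315 by edgeR's quasi-likelihood test), and it was 0.19 without BAM15 replicate 5 and 0.17 without replicate 6. BAM15 numbers 4 to 6 (40.6 ± 9.55 CPM) lay above numbers 1 to 3 (18.4 ± 3.81 CPM) without overlap. The Gpx4 values are uncertain, because 85.8% of its 50-base 3′ stretches occur also in Gpx4-ps2 or AC122253.3, and how reads with several matches were counted is not given in the sources used here.

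Prdx1 is the most abundant cytosolic peroxiredoxin in these cells. Its BAM15 libraries had 480, 514 and 539 CPM (lowest, median and highest), and its vehicle libraries had 544, 590 and 628 CPM. All BAM15 libraries lay below all vehicle libraries, by a narrow margin at the edge. The log2 fold change was -0.21 (SE 0.05), to 0.863 of the vehicle level, with an adjusted p of 0.00301 by edgeR's quasi-likelihood test. The decrease was -0.27 (SE 0.06) in numbers 4 to 6 and -0.15 (SE 0.06, adjusted p of 0.0554) in numbers 1 to 3, where it did not pass.

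Prdx3 is the peroxiredoxin of the mitochondrial matrix. Its BAM15 libraries had 15.7, 37.9 and 70.3 CPM (lowest, median and highest), and its vehicle libraries had 27.9, 35.0 and 43.5 CPM. As with Sod2, the BAM15 libraries spread beyond the vehicle range at both ends. The log2 fold change was 0.19 (SE 0.30, adjusted p of 0.624 by edgeR's quasi-likelihood test), and the 95% interval ran from -0.48 to 0.87. BAM15 numbers 4 to 6 had 56.9 ± 12.4 CPM and numbers 1 to 3 had 23.5 ± 7.25 CPM, a ratio of 2.42. The vehicle ratio was 1.29, from 39.7 ± 4.08 and 30.8 ± 3.35 CPM, and these vehicle libraries did not overlap either. None of its 50-base 3′ stretches occurs in another gene.

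Prdx5, an atypical peroxiredoxin found in mitochondria, peroxisomes and cytosol, had 191, 197 and 211 CPM in the lowest, median and highest BAM15 libraries and 196, 199 and 201 CPM in vehicle. The means of 200 ± 9.49 and 199 ± 2.34 CPM (SD, n = 6) differed by 0.01 on the log2 scale (SE 0.05, adjusted p of 0.919 by edgeR's quasi-likelihood test). The 95% interval from -0.09 to 0.11 was the narrowest but one of the 10. BAM15 numbers 1 to 3 (208 ± 6.36 CPM) lay above numbers 4 to 6 (192 ± 1.5 CPM) without overlap.

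Prdx6, a 1-cysteine peroxiredoxin that takes its electrons from glutathione and also acts as a phospholipase, was the 1 enzyme that rose. Its BAM15 libraries had 299, 330 and 361 CPM (lowest, median and highest), and its vehicle libraries had 221, 244 and 255 CPM. The lowest BAM15 library stood above the highest vehicle library. The log2 fold change was 0.47 (SE 0.06), a 1.38-fold increase, with an adjusted p of 1.70e-05 by edgeR's quasi-likelihood test. It rose within numbers 1 to 3 (0.53, SE 0.06) and within numbers 4 to 6 (0.40, SE 0.06). The 3 BAM15 libraries numbered 1 to 3 (354 ± 6.44 CPM) lay above those numbered 4 to 6 (306 ± 5.43 CPM), the opposite order to Sod2 and Prdx3.

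Txnrd2 makes the thioredoxin reductase of mitochondria, which keeps the electron donor of Prdx3 reduced, and was the least abundant of the 10, with 124 to 207 counts per library. Its BAM15 libraries had 7.83, 9.75 and 10.5 CPM (lowest, median and highest), and its vehicle libraries had 9.41, 10.7 and 11.8 CPM. All 6 BAM15 libraries lay below the vehicle mean, but the groups overlapped. The log2 fold change was -0.17 (SE 0.10, adjusted p of 0.155 by edgeR's quasi-likelihood test). It was -0.02 (SE 0.12) within numbers 1 to 3 and -0.32 (SE 0.13, adjusted p of 0.0373) within numbers 4 to 6.

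**Figure D2:**
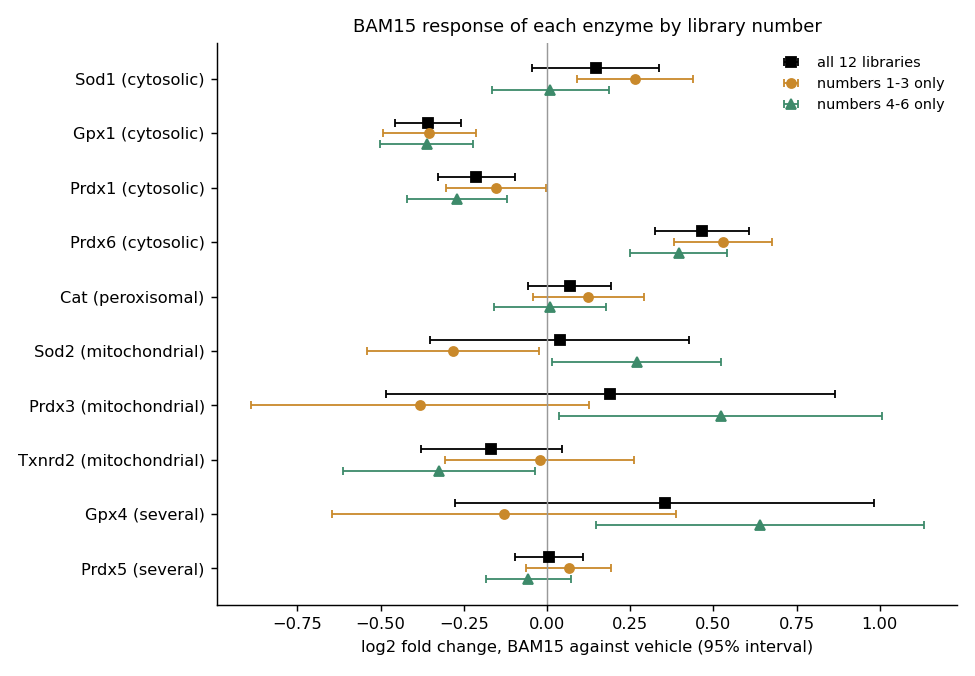
Log2 fold change of BAM15 against vehicle (horizontal axis) with its 95% interval for each enzyme, over all 12 libraries (squares), within numbers 1 to 3 (circles) and within numbers 4 to 6 (triangles). Sod2, Prdx3 and Gpx4 are below 0 in numbers 1 to 3 and above 0 in numbers 4 to 6, Prdx5 is the reverse, and the other 6 keep their side of 0 in all 3 estimates.

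Library numbers were already known to divide the BAM15 group. The response was therefore estimated within each number group in 1 model with 4 groups of 3 libraries. Within numbers 1 to 3, 3 of the 10 enzymes passed an adjusted p of 0.01 (39.3% of all tested genes did). These were Sod1 and Prdx6, which rose, and Gpx1, which fell. Within numbers 4 to 6 there were also 3 (40.6% of all tested genes), Prdx6 higher and Gpx1 and Prdx1 lower. For Sod1 the log2 fold change was 0.26 (SE 0.08, adjusted p of 0.00704 by edgeR's quasi-likelihood test) in numbers 1 to 3 and 0.01 (SE 0.08) in numbers 4 to 6. For Sod2 it was -0.28 (SE 0.11) and 0.27 (SE 0.11), for Prdx3 -0.38 (SE 0.22) and 0.52 (SE 0.21), and for Gpx4 -0.13 (SE 0.22) and 0.64 (SE 0.21). The sign of these 3 differed between the number groups, but none of the 6 values passed an adjusted p of 0.01.

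The test of the difference between the number groups called 0 of the 10 enzymes at an adjusted p below 0.05, where 2.66% of tested genes passed (edgeR's quasi-likelihood test). Sod1, Sod2, Gpx4 and Prdx3 had the lowest p-values of the 10, with adjusted p of 0.147, 0.0629, 0.149 and 0.104 by the same test. The smallest adjusted p among the 10 was 0.0629 for Sod2, whose response was 0.55 higher on the log2 scale in numbers 4 to 6 (SE 0.16). In alternatives chosen after the data were seen, scaling by library size alone brought 1 enzyme (Sod2) under the threshold, and leaving out BAM15 replicate 4 brought 3 under it (Sod2, Gpx4 and Prdx3). The 2.66% holds for the main fit only. Shares of all tested genes under these alternatives are not given here, so the counts are not a result about the enzymes.

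Within the BAM15 group itself, 3 enzymes were higher in numbers 4 to 6 than in 1 to 3 (18.6% of all tested genes) and 2 were lower (20.2% of all tested genes) at an adjusted p below 0.05. Prdx3 (1.27, SE 0.22), Gpx4 (1.14, SE 0.22) and Sod2 (0.75, SE 0.11) were the higher ones, and Sod1 (-0.33, SE 0.08) and Prdx6 (-0.21, SE 0.06) the lower ones, as log2 differences. The vehicle libraries gave 0 called enzymes in the same contrast (0% of all tested genes), with 0 of the 10 at an unadjusted p below 0.05. Counted by overlap alone, 3 enzymes had every BAM15 library of 4 to 6 above every one of 1 to 3 (22.2% of all tested genes), 5 had them below (27.7% of all tested genes), and Gpx1 and Prdx1 overlapped. The 5 below included Cat, at 63.5 ± 2.26 CPM in 4 to 6 and 69.3 ± 2.43 CPM in 1 to 3, and Txnrd2, at 8.62 ± 0.90 and 10.3 ± 0.33 CPM. In vehicle, Sod2 and Prdx3 also had 4 to 6 above 1 to 3 without overlap, and the share of all tested genes for this is not given here. The vehicle log2 differences were 0.20 (SE 0.11) for Sod2, 0.37 (SE 0.21) for Prdx3 and 0.37 (SE 0.22) for Gpx4. Prdx3, Gpx4 and Sod2 had the widest spread of the 10 in BAM15. Their coefficients of variation were 50.8, 46.8 and 30.6% in BAM15 and 16.8, 23.2 and 8.66% in vehicle, beside a median over all tested genes of 14.8% in BAM15 and 9.81% in vehicle.

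Some of the enzymes that divided by number varied closely together. After the condition means were taken out, log2 CPM of Sod2 and Prdx3 had a Pearson correlation of 0.99 over the 12 libraries, Sod2 and Gpx4 one of 0.90, and Sod1 and Prdx6 one of 0.96. Sod1 ran against Prdx3 (-0.87) and against Sod2 (-0.84). Txnrd2, which also divided by number, gave weaker values, at 0.67 with Sod1, 0.19 with Cat, -0.44 with Sod2 and -0.48 with Prdx3. The points share libraries and the division by number, so these values are descriptions of the 12 libraries. Gpx1, with the lowest p-value, was followed most closely by Sar1a (0.92), Rapgef3 (0.91) and Fxyd6 (0.91) over the same 12 libraries. For Prdx3, which was added after its values were seen, the nearest genes were Dusp6, Hspb11 and Mex3c, each at 0.99. Both sets were picked as the highest among all tested genes, so their values are high by that choice and are descriptions only. Gpx1 also varied little, with a coefficient of variation of 1.85% in BAM15 and 4.20% in vehicle.

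The contrast of mitochondrial with cytosolic enzymes was taken per library as the mean log2 CPM of Sod2, Prdx3 and Txnrd2 minus that of Sod1, Gpx1, Prdx1 and Prdx6. It was -3.45 ± 0.46 in BAM15 and -3.39 ± 0.18 in vehicle (SD, n = 6 each), a difference of -0.06 that is smaller than the spread within either group. The BAM15 libraries ran from -4.12 to -2.88 and the vehicle libraries from -3.62 to -3.16, so the groups overlapped. BAM15 numbers 1 to 3 lay between -4.12 and -3.64 and numbers 4 to 6 between -3.29 and -2.88. The BAM15 minus vehicle difference was -0.32 within numbers 1 to 3 and 0.20 within numbers 4 to 6. It ran from -0.18 to 0.07 with each library left out, was above 0 only without BAM15 replicate 2 (0.07), and went furthest below without BAM15 replicate 5 (-0.18) and replicate 6 (-0.14). It was 0.01 with Gpx4 and Prdx5 counted as mitochondrial and -0.18 with Gpx1 left out, so its sign was not stable. No test was run on this score, because the members were chosen with results known. Transcripts encoded by mitochondrial DNA took 4.29 to 6.47% of counts in BAM15 libraries and 2.85 to 4.71% in vehicle libraries, and their part in the contrast was not tested.

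Matched pairs of enzymes of the same family divided in the same way, but they reuse genes of the contrast and give no separate support. In BAM15, Sod2 and Prdx3 lay higher in numbers 4 to 6, and Sod1 and Prdx6 lay lower. The mitochondrial Txnrd2 went the other way to Sod2 and Prdx3, at 8.62 ± 0.90 CPM in 4 to 6 and 10.3 ± 0.33 CPM in 1 to 3. Gpx1 and Prdx1 overlapped between the number groups. Sod2 minus Sod1 was -2.53 ± 0.65 in BAM15 and -2.37 ± 0.23 in vehicle on the log2 scale, with BAM15 means of -3.08 in numbers 1 to 3 and -1.97 in numbers 4 to 6. Prdx3 minus Prdx1 was -3.84 ± 0.81 in BAM15 and -4.08 ± 0.24 in vehicle, with BAM15 means of -4.51 and -3.17. Neither pair separated the conditions. Between the cytosolic peroxiredoxins Prdx6 and Prdx1, a pair chosen after its values were seen, the balance was -0.63 ± 0.12 in BAM15 and -1.31 ± 0.12 in vehicle. The 6 BAM15 libraries lay between -0.77 and -0.45 and the 6 vehicle libraries between -1.51 and -1.17, without overlap. This had to follow, because Prdx6 was higher and Prdx1 lower in every BAM15 library.

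**Figure D3:**
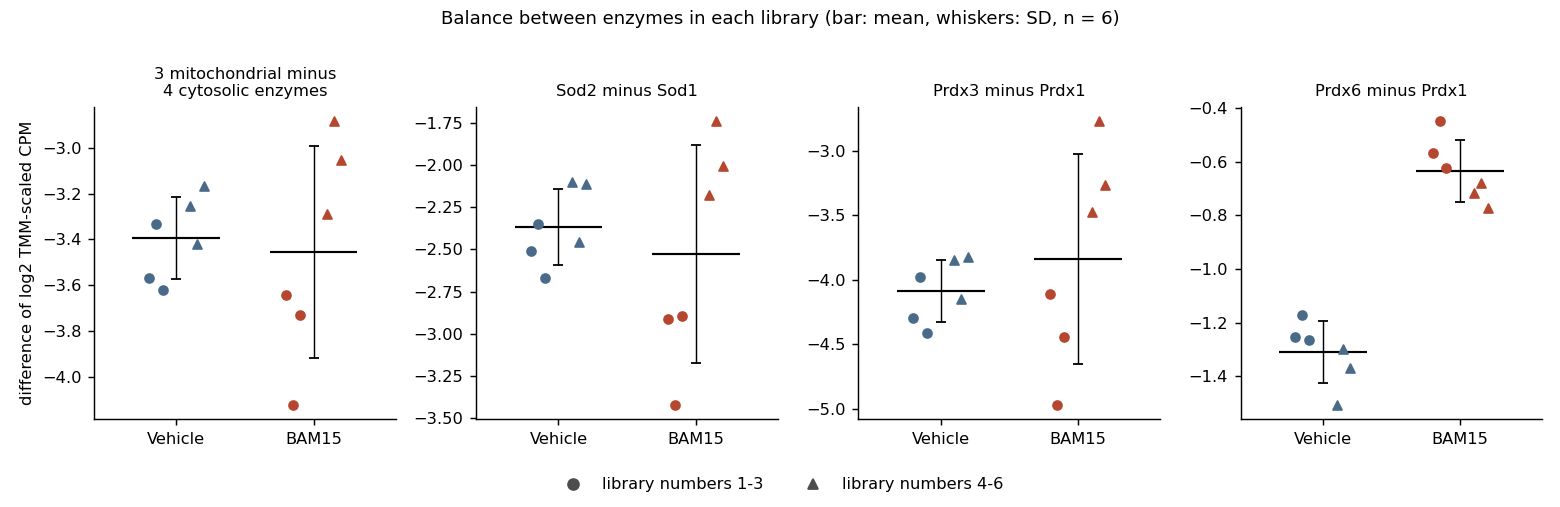
Differences of log2 TMM-scaled CPM between enzymes in each library (vertical axes), with circles for library numbers 1 to 3 and triangles for 4 to 6, means as bars and SDs as whiskers. The mitochondrial minus cytosolic contrast and its pairs spread more widely in BAM15 than in vehicle and divide by number. Prdx6 minus Prdx1, a pair chosen after its values were seen, separates the conditions.

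By family, the peroxiredoxin transcripts changed in make-up more than in sum. The 6 Prdx genes summed to 1226 ± 30.0 CPM in BAM15 and 1247 ± 42.6 CPM in vehicle, and these ranges overlapped. Prdx6 made 26.8 ± 1.67% of that sum in BAM15 and 19.1 ± 1.09% in vehicle, while Prdx1 made 41.6 ± 1.40% and 47.4 ± 1.26%. Both shares separated the conditions without overlap. The listed glutathione peroxidases Gpx1, Gpx3, Gpx4 and Gpx8 summed to 304 ± 3.98 CPM in BAM15 and 396 ± 16.4 CPM in vehicle, with every BAM15 library lower. Gpx1 held 54.7 ± 0.90% of that sum in BAM15 and 53.8 ± 1.06% in vehicle. The sum and its shares include the uncertain Gpx4 values. The superoxide dismutases summed to 753 ± 51.0 and 693 ± 43.1 CPM and overlapped, with Sod2 at 10.6 ± 1.86% of the sum in BAM15 numbers 1 to 3 and 20.1 ± 2.50% in numbers 4 to 6.

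**Figure D4:**
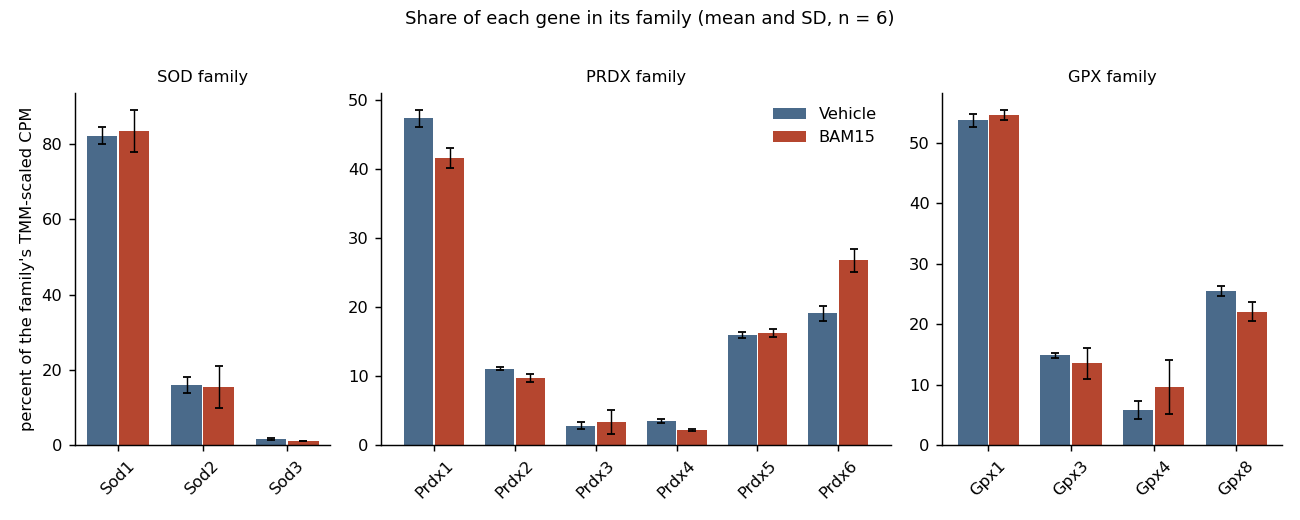
Mean share of each gene in the summed CPM of its family (vertical axes, percent, from 0) in vehicle and BAM15, with SD over 6 libraries as whiskers. Prdx6 takes a larger and Prdx1 a smaller share of the peroxiredoxin sum in BAM15 than in vehicle.

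The related genes were taken as 4 lists written from general knowledge with earlier results of these data known: other members of the same families, partners that hand on electrons or repair the enzymes, selenium genes, and sources of superoxide or peroxide. Of the 7 tested family members outside the 10 enzymes, 2 rose and 5 fell, and all 7 passed an adjusted p of 0.01, beside 3 of the 10 enzymes and, of all tested genes, 22% higher and 20.3% lower. The 2 that rose were thioredoxin reductases. Txnrd1, the cytosolic counterpart of Txnrd2, went from 101 ± 10.0 to 150 ± 26.3 CPM (log2 fold change 0.56, SE 0.11) and Txnrd3 from 23.0 ± 2.25 to 36.2 ± 4.66 CPM (0.66, SE 0.09). The 5 that fell included Prdx4 of the endoplasmic reticulum (-0.72, SE 0.07), the endoplasmic reticulum peroxidase Gpx8 (-0.59, SE 0.06) and the extracellular Sod3 (-0.55, SE 0.10). The plasma peroxidase Gpx3 (-0.52, SE 0.10) and the cytosolic Prdx2 (-0.22, SE 0.05) fell as well. In Prdx2, 173 of the last 400 bases overlap Junb on the opposite strand, so its value depends on how strand was counted. The median log2 fold change of these 7 was -0.52, against 0.05 for the 10 enzymes.

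Of the 10 partners, 1 rose, 2 fell and 7 were not called, with a median log2 fold change of -0.04 (22% of all tested genes were higher and 20.3% lower). Srxn1, sulfiredoxin, which repairs overoxidized peroxiredoxins, rose from 30.0 ± 1.47 to 89.2 ± 7.74 CPM, a 2.97-fold increase (log2 fold change 1.57, SE 0.07, adjusted p of 4.16e-11 by edgeR's quasi-likelihood test). Every BAM15 library lay above every vehicle library, and Srxn1 was the only partner past all 3 thresholds. Its change was larger than that of any of the 10 enzymes. Glrx, a cytosolic glutaredoxin, fell (-0.70, SE 0.11), and so did Idh2, which makes NADPH in mitochondria (-0.30, SE 0.08). Txn2, the mitochondrial thioredoxin that serves Prdx3, had a log2 fold change of 0.17 (SE 0.05) and an adjusted p of 0.0153. Gsr, glutathione reductase, was the only partner whose response differed between the number groups (difference 1.56, adjusted p of 0.0444 by edgeR's quasi-likelihood test), and it was low, at 2.01 to 10.9 CPM.

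Promoter sequence is shown for Sod1, Prdx1, Txnrd1 and Srxn1 because these, among the enzymes, their families and their partners, hold the core of the antioxidant response element, a motif bound by the stress factor NRF2. The core was searched as TGACNNNGC on both strands in RefSeq promoters of GRCm38.p6, from 250 bases before to 50 after each gene start, and 14% of all 27025 genes in the promoter table held it. Of the 9 enzymes with a promoter there, 2 held it (22.2%), and Prdx6 was not among the 9. Of the family members, 1 of 7 with a promoter held it, and of the partners also 1 of 7. In the other lists below, Smox among the 9 oxidant sources with a promoter and Selenok among the 17 selenium genes with one held it too. Sequences are given on the gene strand, which is the plus strand in all 4, with the match in capitals as its reverse complement.
Sod1, chr16:90220686-90220734: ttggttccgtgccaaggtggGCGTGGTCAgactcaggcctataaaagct
Prdx1, chr4:116685446-116685494: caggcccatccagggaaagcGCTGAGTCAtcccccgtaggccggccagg
Txnrd1, chr10:82859094-82859142: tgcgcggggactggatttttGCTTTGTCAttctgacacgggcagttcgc
Srxn1, chr2:152105532-152105573: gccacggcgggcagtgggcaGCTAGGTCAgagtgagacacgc
In Prdx1 the match overlaps TGAGTCA, the letters of an AP-1 site. Of the 6 genes that hold the TGACNNNGC core, Srxn1, Txnrd1 and Smox rose and Prdx1 fell, beside 22% of all tested genes higher and 20.3% lower. The 6 come from lists written with results known, and a link between the core and the response was not tested. Sod1 and Selenok (log2 fold change 0.11, SE 0.12) did not pass the test. A match is a description of these letters and not a mapped binding site.

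Among the 18 selenium genes, which include other selenoproteins and the factors that insert selenocysteine, 5 rose, 4 fell and 9 were not called, with a median log2 fold change of 0.05 (22% of all tested genes were higher and 20.3% lower, near these shares). Selenoh, a nucleolar selenoprotein, fell most (-0.89, SE 0.06), from 40.8 ± 2.53 to 22.0 ± 1.07 CPM. Selenon, which lies in the endoplasmic reticulum and is required in muscle, fell (-0.56, SE 0.08), and so did Sephs1 (-0.46, SE 0.08). Selenos, an endoplasmic reticulum degradation factor, rose (0.52, SE 0.09), as did the small muscle selenoprotein Selenow (0.47, SE 0.10). Selenoo, a mitochondrial selenoprotein, rose by 0.61 (SE 0.07), but all of its last 400 bases overlap Tubgcp6 on the opposite strand.

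Of 13 genes for sources of superoxide or peroxide 9 were tested, and 5 rose and 0 fell at an adjusted p below 0.01 (edgeR's quasi-likelihood test). DESeq2 and limma-voom each also called 5 higher and 0 lower. Of all tested genes 22% were higher and 20.3% lower by edgeR. Of the other 4, Nox4 was the 1 with a value below 0 and an unadjusted p below 0.05 (log2 fold change -0.19, SE 0.07, adjusted p of 0.0309). Ero1l, which forms disulfides in the endoplasmic reticulum and releases hydrogen peroxide, rose 6.23-fold (log2 fold change 2.64, SE 0.06), from 12.7 ± 1.01 to 79.1 ± 2.17 CPM. Maoa, the monoamine oxidase of the outer mitochondrial membrane, rose 1.94-fold (0.96, SE 0.07). Xdh, xanthine oxidoreductase, rose 2.53-fold (1.34, SE 0.18) from a low level of 2.20 ± 0.55 CPM. Smox, spermine oxidase (0.41, SE 0.07), and Ncf1, a cytosolic subunit of the phagocyte NADPH oxidase (0.48, SE 0.13), rose less. The Ncf1 groups overlapped, at 11.3 to 16.6 CPM in BAM15 and 7.88 to 12.1 CPM in vehicle. Cybb, Cyba and Pipox of the source list were not in the count table, and Maob was too low to be tested. The median log2 fold change of the 9 tested sources was 0.41. Against these values, the largest change among the 10 detoxifying enzymes was the 1.38-fold rise of Prdx6.

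**Figure D5:**
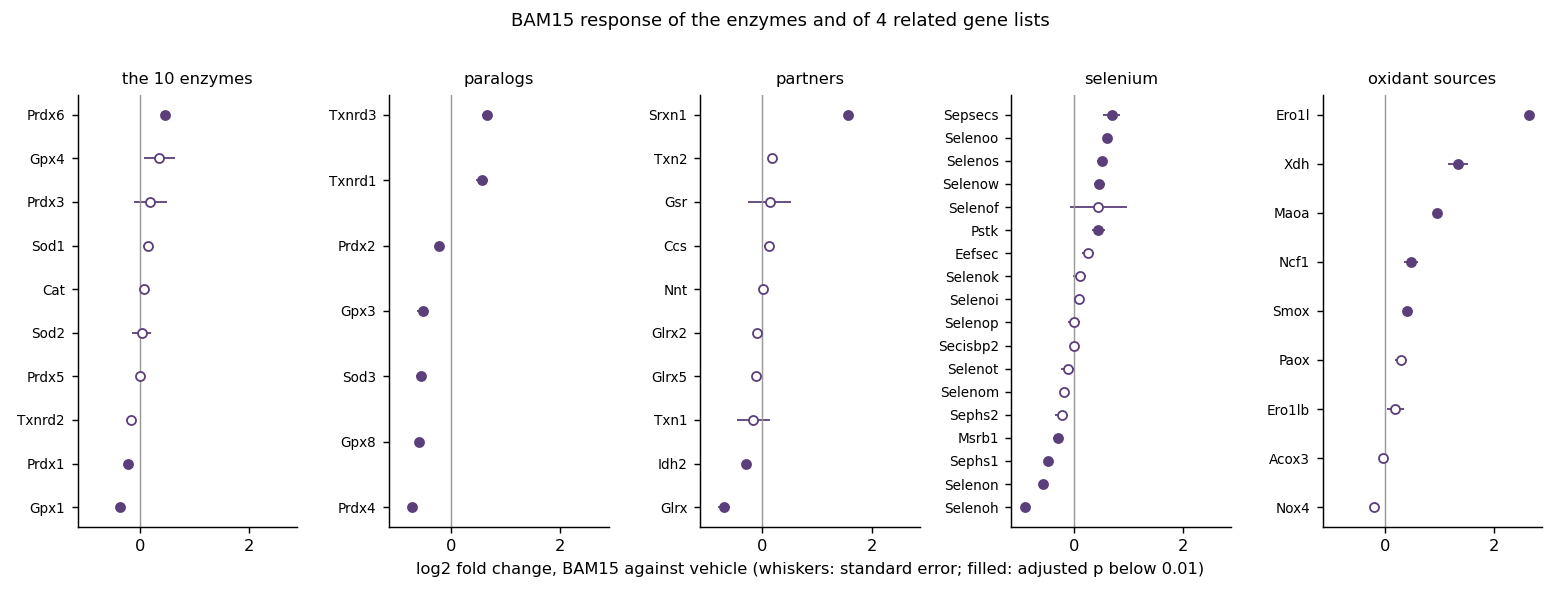
Log2 fold change of BAM15 against vehicle (horizontal axes) with its standard error for the 10 enzymes, other members of their families, partners, selenium genes and oxidant sources, 1 panel each. Filled points passed an adjusted p of 0.01. The 10 enzymes run from -0.36 (Gpx1) to 0.47 (Prdx6), and each of the other panels holds genes beyond that range on at least 1 side, up to 2.64 for Ero1l and down to -0.89 for Selenoh.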

How the data were processed

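RNA of C2C12 myotubes (6 BAM15 and 6 vehicle libraries) was sequenced by the authors with QuantSeq 3′ libraries and processed with BlueBee software. The aligner, annotation and strand setting are not given in the sources used here, and the submitters' processing notes name GRCm38 and DESeq2 1.22.2. The deposited counts are whole reads per Ensembl gene. The normalized signal that the authors deposited equals these counts divided by 1 size factor per library (0.836 to 1.07) and supplied gene symbols only. For 2260 of 2293 identifiers without one, the symbol came from GENCODE M21. Another 11 columns belong to samples not covered here and were not used. No library was a copy of another (chi-square per gene between libraries of a condition at least 4.46).

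Counts were fitted in R 4.3.3 with edgeR 4.0.16 (filterByExpr, TMM scaling, robust quasi-likelihood, condition as the only term), with Benjamini-Hochberg adjustment over 12730 genes. The standard error is the log2 fold change divided by the square root of F, and 95% intervals use the 10 residual degrees of freedom (fewer in the model of number groups). Calls use adjusted p below 0.01, or 0.05 between number groups. TMM-scaled CPM, from counts of the tested genes, give the levels. The test of BAM15 against vehicle was checked on simulated counts with a common dispersion and no division by number. The model of number groups was not checked in this way. The members, the lists and the split by library number were chosen with earlier results of these data known. All 10 enzymes are named, and from each related list at most 6 genes, those with the lowest p among the genes called, plus the 3 genes most correlated with the enzyme of lowest p. Prdx2, Txn2, Gsr, Nox4 and Selenok, and the genes nearest to Prdx3, were added after their values were seen. An item of the source list is not reported here and was left out of its counts. Alternatives were DESeq2 1.42.0, limma-voom (limma 3.58.1), other scalings and filters, blocks for library number, number groups alone and each library left out. Figures were drawn with matplotlib 3.10.9 in Python 3.11.15.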

Additional observations from a re-analysis of the deposited data

Results flagged for a closer look

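Of 68 groups of 6 libraries checked for a single library far from the rest, 2 were marked by Dixon's criterion, where chance marks about 1 in 20 groups. None of the 10 enzymes was among them. Txnrd3 had 27.3 CPM in vehicle replicate 2, with the next library at 23.0 CPM. Smox had 32.2 CPM in BAM15 replicate 3, with the next library at 29.1 CPM. Neither gene's groups overlapped with these libraries included.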

How the results depend on the processing

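The directions and calls of Gpx1 (log2 fold change -0.42 to -0.34, adjusted p at most 0.00160) and Prdx6 (0.38 to 0.53, adjusted p at most 0.00175) held under all 24 alternatives, and the calls of all genes numbered 4265 to 6097. With numbers 1 to 3 only, 2 enzymes were higher and 1 was lower: Sod1 passed (0.26, adjusted p of 7.42e-04 by edgeR) and Prdx1 did not (-0.16, adjusted p of 0.0253). That setting also gave -0.29 for Sod2, -0.13 for Gpx4 and -0.38 for Prdx3. With numbers 4 to 6 only, Sod1 was at -0.00092, Cat at -0.0021 and Prdx5 at -0.0659. Prdx5 was at -0.0139 with upper quartile scaling, -0.0566 with library size only and -0.0022 with DESeq2. Sod2 was at -0.0085 with library size only, -0.0187 with limma-voom, -0.0144 with the replicate block and -0.0047 with a block for the number groups. None of these reversed values passed the test, and the cause was not tested. Leaving out each library gave -0.0767 to 0.154 for Sod2 (below 0 without BAM15 replicate 5 or 6), -0.0450 to 0.357 for Prdx3 (below 0 without BAM15 replicate 5), 0.170 to 0.479 for Gpx4 and -0.0099 to 0.0195 for Prdx5. The number of enzymes whose response differed between number groups was 0, became 1 with library size only, and ran from 0 to 3 with each library left out (3 without BAM15 replicate 4: Sod2, Gpx4 and Prdx3). The alternatives for this count were chosen after the data were seen, and their shares of all tested genes are not given here.

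Same-numbered libraries did not deviate together in every case (correlations of -0.08 to 0.43, 4 of 6 pairs above 0.1), so the numbers were not taken as pairs. The replicate block changed no call among the 10. Txnrd2 had the fewest counts of the 10, at most 207 per library.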
